A study of Mus musculus with 2 samples.

Results

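Among periosteal cells of mouse long bones, 88 of 13591 cell barcodes met a rule built on the transcripts of Lepr Adipoq stromal cells, a cell type best known from bone marrow. There were 78 of them among the 9932 barcodes of library 1 and 10 among the 3659 barcodes of library 2. They were chosen by their own unique molecular identifiers (UMIs), each of which counts 1 captured transcript. A cell was kept when at least 3 of the 6 genes Lepr, Adipoq, Kitl, Foxc1, Ebf3, and Lpl had a UMI and Cxcl12 had at least 3. It also had to have at most 1 UMI of Clec3b, 0 of Ptprc, and fewer than 2 of the 4 osteoblast genes Bglap2, Ibsp, Ifitm5, and Dmp1 at 2 or more UMIs. These 13 genes are therefore described below and not tested. The rule asked for no single one of the 6 genes, and 7 of the cells of library 1 and 5 of those of library 2 had no Adipoq UMI. In library 2, 1 cell fitted the name poorly, with 0 UMIs of Lepr and Adipoq, none of 6 mesenchymal genes, 6 UMIs of Cxcl12, 65 of Fabp4, and 30 of endothelial genes. It was kept because it met the rule. A further cell of library 2 had 0 UMIs of Adipoq, Kitl, and Ebf3 and 2 of Lepr. It held 405 UMIs of Spp1, 108 of Col1a1, and 49 of mural genes. This cell alone gave 15379 of the 46090 summed UMIs of the stromal cells of library 2, and so weighs heavily in their levels.

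The study asked which surface molecules mark skeletal stem cells of the periosteum (P-SSCs) and measured nonhematopoietic, nonendothelial periosteal cells of mice by 10x scRNA-Seq. Both libraries are labelled as WT mice of the C57BL6 strain, 4 weeks old, and as replicates 1 and 2 of a single condition with no treatment. Periosteum was peeled from femurs and tibias, digested with collagenase, and sorted on CD45, CD31, Ter-119, and DAPI. How many mice went into a library is not given in the sources used here, so that p-values measure only the spread between these 2 libraries, which may be technical.

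Cells with at least 500 genes, at least 500 UMIs, and at most 10% mitochondrial UMIs numbered 6276 of library 1 (100808649 UMIs in all) and 2893 of library 2 (33306452 UMIs). Of these, 3296 and 2114 had no UMI of Ptprc, which encodes CD45. The stromal cells made up 1.24% of the passing cells of library 1 (exact 95% binomial interval, 0.984% to 1.55%) and 0.346% of those of library 2 (0.166% to 0.635%), so that the share in library 1 lay above that in library 2 beyond counting error. Another share was taken among mesenchymal cells, that is the stromal cells and others with at least 2 of 6 mesenchymal genes. It was 34.5% (28.3% to 41.1%) in library 1 and 1.33% (0.639% to 2.43%) in library 2. Their summed UMIs were 704825 and 46090, and levels are given below in CPM, the UMIs of a gene as counts per 1000000 UMIs of such a sum. A level of 0 UMIs allowed up to 4.26 CPM in library 1 and 65.1 in library 2 (3 UMIs), so that library 2 could show only abundant transcripts.

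The libraries stood apart in further ways. Library 1 held 16 fibroblasts with at least 2 Clec3b UMIs against 310 in library 2, and 117 osteoblasts against 203. Transcripts of 2 reporter proteins were counted although both labels read WT. EGFP had 0 UMIs in library 1 and 6837 in the passing cells of library 2, none of them in the 10 stromal cells, and tdTomato had 1482 and 4627 UMIs, of which 5 and 7 fell in the stromal cells. Of all barcodes, 8 occurred in both libraries, 1 of them a stromal cell of library 1 whose barcode in library 2 was not such a cell.

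In bone marrow, stromal cells with Lepr line the sinusoids and secrete Cxcl12 and Kitl, the stem cell factor, which retain and maintain hematopoietic stem and progenitor cells. The transcription factors Foxc1 and Ebf3 keep these cells in that state, whereas Adipoq (adiponectin) and Lpl (lipoprotein lipase) mark their kinship to adipocytes. The periosteum, the sheet on the outer bone surface, holds its own fibroblasts and skeletal progenitors.

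The genes of the rule were each found in most of the selected cells of library 1 and in fewer of those of library 2. In library 1, 52 of 78 cells had all 6 genes, 13 had 5, 8 had 4, and 5 had 3. In library 2, 3 of 10 cells had all 6, 1 had 5, 0 had 4, and 6 had only 3. Lepr was detected in 75 of 78 and in 8 of 10 cells, and Adipoq in 71 and 5. Kitl was found in 73 and 6 cells, Foxc1 in 68 and 8, Ebf3 in 61 and 6, and Lpl in 76 and 8. Adipoq was thus the gene most often missing in library 2.

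The shares depended on depth, which was a median of 7522 UMIs per cell in library 1 and 3110 in library 2. After every cell had been thinned to 2000 UMIs, which left out 5 and 3 of the cells, Adipoq was found in 85.0% and 56.9% of the stromal cells and Lepr in 70.6% and 53.6%. B cells, which should lack both genes, gave 0.174% and 0.0244% for Adipoq at the same depth and 0.513% and 0.0775% before thinning, at medians of 4110 and 4226 UMIs (2729 and 1291 cells). For Lepr the thinned B cell shares were 0.0974% and 0.0447%, and 0.22% and 0.155% before thinning. Both genes were part of the rule, so that these shares describe the selected cells and lend their identity no support.

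As levels, Cxcl12 amounted to 12464 CPM in the stromal cells of library 1 and 7811 in library 2, against 157 and 582 in Clec3b fibroblasts and 6.36 and 3.49 in osteoblasts. Adipoq amounted to 2286 and 1063, against 0 and 6.15 in the fibroblasts and 0.706 and 0.269 in the osteoblasts. Lepr amounted to 589 and 542, Kitl to 1056 and 456, Foxc1 to 384 and 260, Ebf3 to 343 and 195, and Lpl to 3686 and 998 in the stromal cells. The ratio of library 2 to library 1 was 0.921 for Lepr, 0.465 for Adipoq, 0.432 for Kitl, and 0.271 for Lpl, in cells of which 6 of 10 entered in library 2 with the fewest genes the rule allows.

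Per cell, Cxcl12 ranged from 8 to 345 UMIs in library 1 (median 111.5) and from 6 to 106 in library 2 (median 33), all well clear of the threshold of 3. Among cells just inside the rule, with exactly 3 of the 6 genes, the median Cxcl12 count was 14 in 5 cells of library 1 and 22 in 6 cells of library 2. Just outside it, cells that met all else but had only 2 of the 6 genes numbered 2 and 6, with median Cxcl12 counts of 8 and 4.5. Cells kept out only by Cxcl12 numbered 4 and 12 and held 0 to 2 Cxcl12 UMIs, and cells kept out only by Clec3b numbered 1 and 6. No cell was kept out by the osteoblast genes alone. In library 1, 7 cells met every criterion except that they held 1 to 19 Ptprc UMIs, and 6 of them had Adipoq. In all, 14 cells of library 1 and 24 of library 2 were kept out by a single criterion, against 78 and 10 that were kept, so that the selection in library 2 hung on where the rule was drawn.

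**Figure D1:**
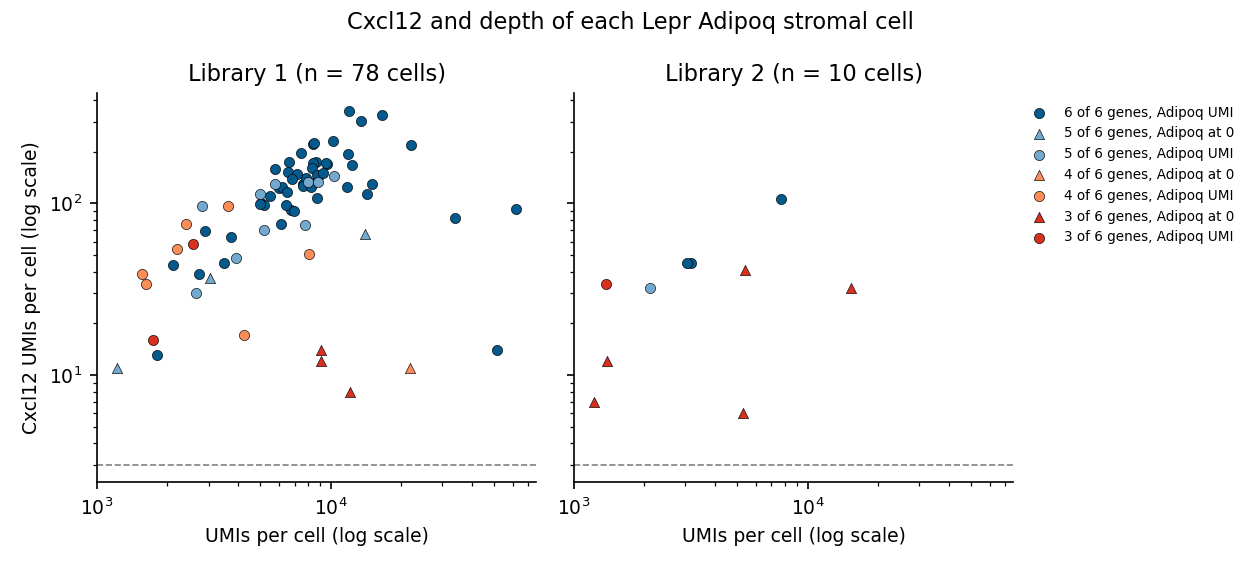
Each point is 1 stromal cell, by its total UMIs (x axis, log scale) and its Cxcl12 UMIs (y axis, log scale), in library 1 (78 cells) and library 2 (10 cells). The colour gives how many of the 6 genes were found, triangles had no Adipoq UMI, and the dashed line is the threshold of 3 Cxcl12 UMIs. Cells with 6 of 6 genes fill the upper part of library 1, and 5 of the 6 cells with only 3 genes in library 2 had no Adipoq UMI.

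Most marrow stromal markers outside the rule were higher in the stromal cells than in fibroblasts and in osteoblasts. All 20 marrow stromal markers that had no part in the selection had UMIs in the stromal cells of both libraries, and they summed to 24128 and 16750 CPM, against 6806 and 4458 in Clec3b fibroblasts and 404 and 433 in osteoblasts. Against the fibroblasts, 15 of the 20 were higher and none lower (edgeR's quasi-likelihood test on summed UMIs with Benjamini-Hochberg adjustment, threshold 0.05), where 2.67% of 10589 genes tested were higher and 4.38% lower (7.05% in either direction). Against the osteoblasts, 19 of 20 were higher and none lower, where 5.2% of all genes were higher and 4.89% lower (10.1% in either direction). The median log2 fold change of the list was 2.95 and 6.13, and that of all genes -0.07 and -0.05. Pdgfra was the marker that passed in neither comparison, at 203 and 65.1 CPM in the stromal cells and 379 and 276 in the fibroblasts. The list had been drawn up with earlier results of these data known, and genes that vary together with Cxcl12, Lepr, or Adipoq differ partly through the selection itself. The list therefore cannot test the label.

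Over all genes, 283 were higher and 464 lower in the stromal cells than in Clec3b fibroblasts (16 and 310 cells), and 551 were higher and 518 lower than in osteoblasts (117 and 203 cells). These counts rested mainly on the deeper library. Without the stromal cells of library 1, 52 and 17 genes passed against fibroblasts and 103 and 35 against osteoblasts. Without those of library 2, the counts were 329 and 453, and 575 and 478. All other Ptprc-negative cells (3218 and 2104) were a mixture of hematopoietic, cartilage, muscle, and fibroblast cells, with the Clec3b fibroblasts and the osteoblasts among them. Against this mixture, 56 genes were higher and 29 lower of 13222 tested (0.424% and 0.219%, or 0.643% in either direction). With the library as a block, none of them passed any longer (0 of 13222, with 2831 at an unadjusted p under 0.05), and the stromal cells are therefore set mainly against the fibroblasts and the osteoblasts, where the block left 235 and 454, and 516 and 554 genes.

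The fold changes were fitted with edgeR's TMM scaling, whereas the CPM printed here are scaled by the plain sum of UMIs. A gene at equal CPM therefore had a fitted log2 fold change of about -0.40 against fibroblasts, -0.90 against osteoblasts, and -0.87 against the other cells, and small fold changes can differ in sign from the CPM. The sign was opposite to that of the CPM of both libraries for 581, 1394, and 1262 genes, 0 of which passed the threshold. In a fit on plain sums, chosen after seeing the data, the split of calls moved to 446 higher and 342 lower than in fibroblasts, 1407 and 269 than in osteoblasts, and 14 and 4 than in the other cells. Among the gene lists in the comparisons with fibroblasts and osteoblasts, the largest move was that of the transcription factors against osteoblasts. They went from 7 higher and 1 lower to 13 and 0. The receptors moved from 7 and 3 to 11 and 2 and the osteogenic genes from 3 and 9 to 5 and 7 against osteoblasts, the niche ligands from 7 to 10 and the BMP, Wnt, and IGF modulators from 5 to 8 higher than in fibroblasts, and the median of the matrix genes against osteoblasts changed sign, from -0.13 to 0.73. Igfbp4 and Pth1r passed against fibroblasts on plain sums only (adjusted p = 0.0129 and 0.014), and other genes described below whose call against fibroblasts or osteoblasts depended on the scaling are given with both values.

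Most ligands of the hematopoietic niche were higher in the stromal cells than in osteoblasts, though not their sum. Of 20 niche ligands tested, 15 were higher and 1 lower than in osteoblasts (median log2 fold change 3.78), and 7 were higher and 1 lower than in fibroblasts (median 1.84). Among the 15, Flt3l and Il34 had no UMI in the stromal cells of library 2 and rested on those of library 1. The 23 ligands summed to 7500 and 17032 CPM in the stromal cells, 1714 and 2798 in fibroblasts, and 16377 and 17134 in osteoblasts. Spp1 (osteopontin), a bone matrix protein on the list, made up most of the osteoblast sum, at 15940 and 16558 CPM, and of the stromal sum of library 2, at 9373 CPM, where 405 of its 432 UMIs came from 1 cell. The adhesion molecule Vcam1 amounted to 1007 and 651 CPM in the stromal cells, to 5.06 and 40.0 in fibroblasts, and to 9.18 and 4.03 in osteoblasts. It was high in the stromal cells of both libraries and far lower in both other classes (log2 fold change 4.40 ± 0.72 (SE), adjusted p = 0.00544 against fibroblasts, and 6.14 ± 0.77, adjusted p = 0.000907 against osteoblasts).

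Il7, which B cell precursors need, amounted to 140 and 43.4 CPM, the latter from 2 UMIs. Fibroblasts held 0 and 1 Il7 UMIs and osteoblasts none, which put the stromal cells at least 294-fold above osteoblasts over both libraries against a floor of 3 UMIs (adjusted p = 0.00057). The ratio to fibroblasts in library 2 was 127 with a counting interval of 6.61 to 7490. Il7 was thus measured well in library 1 only.

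Gas6, a ligand of the TAM receptor tyrosine kinases, amounted to 1315 and 1324 CPM against 172 and 227 in fibroblasts and 1.77 and 2.96 in osteoblasts. The levels in the stromal cells of the libraries were close, and both comparisons passed (log2 fold change 2.28 ± 0.44, adjusted p = 0.012, and 8.19 ± 0.59, adjusted p = 9.37e-05). Csf1, the growth factor of macrophages and osteoclast precursors, was higher than in osteoblasts alone, at 275 and 325 against 12.0 and 11.3 CPM, and fibroblasts held 167 and 104. Angpt1, a ligand of the endothelial receptor Tek, amounted to 173 and 174 and passed in both comparisons.

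Tnfsf11 encodes RANKL, the cytokine that drives osteoclast formation. It amounted to 118 and 217 CPM in the stromal cells (83 and 10 UMIs), to 0 and 0.342 in fibroblasts, and to 4.24 and 6.99 in osteoblasts. The stromal cells of each library lay above both other classes, at 27.8 times (15.1 to 55.9) and 31.1 times (13.4 to 66.6) the level of the osteoblasts of the same library. The log2 fold change against osteoblasts was 3.85 ± 0.53 (adjusted p = 0.00174). In library 2, 9 of the 10 Tnfsf11 UMIs came from 1 cell, without which the level was 26.1 CPM. Of the other niche ligands, Thpo had 0 UMIs in the stromal cells of both libraries, Jag1 amounted to 48.2 and 43.4 CPM and passed in neither comparison (higher than in osteoblasts on plain sums, adjusted p = 0.0068), and Tgfb1 was the ligand lower than in osteoblasts, at 59.6 and 43.4 against 192 and 230.

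The genes with the largest folds were in part secreted proteins better known from the liver. Of 14 complement and acute phase genes tested, 12 were higher and none lower than in osteoblasts (median log2 fold change 5.36), and 6 were higher and 1 lower than in fibroblasts (median 1.03). Hp, which encodes the hemoglobin-binding haptoglobin, amounted to 2618 and 1128 CPM against 5.06 and 9.57 in fibroblasts and 7.77 and 6.99 in osteoblasts. In library 2, the less deep one, it stood at 118 times the fibroblast level (exact 95% interval, 73.1 to 194) and 161 times the osteoblast level (99 to 269), and both tests passed (log2 fold change 7.30 ± 0.69, adjusted p = 0.000572, and 7.15 ± 0.65, adjusted p = 0.000195).

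Kng1 and Kng2 encode kininogens, the precursors of kinins. Kng1 amounted to 289 and 86.8 CPM in the stromal cells (204 and 4 UMIs) and had 0 UMIs in osteoblasts, which put it at least 605-fold higher over both libraries (adjusted p = 0.000332). Fibroblasts held 0 and 2 Kng1 UMIs, a ratio of 127 in library 2 with a counting interval of 18.2 to 1403. Kng2 amounted to 360 and 217 CPM (254 and 10 UMIs) against 0 and 3.42 in fibroblasts and 0 and 0.269 in osteoblasts. Both were near 0 in the other 2 classes, and since they are close paralogs, reads could have been shared or lost between them. Agt (angiotensinogen) amounted to 646 and 325, Cp (ceruloplasmin) to 336 and 282, and C6, a component of the complement attack complex, to 62.4 and 65.1. Each of the 3 was higher than in both fibroblasts and osteoblasts. Among the complement genes that fibroblasts also expressed, C1s1 was lower than in fibroblasts and higher than in osteoblasts, at 62.4 and 43.4 CPM.

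Secreted modulators of BMP, Wnt, and IGF signaling were abundant. Of 21 tested, 15 were higher and 1 lower than in osteoblasts (median log2 fold change 4.14), and 5 were higher and 3 lower than in fibroblasts (median 0.94). Grem1, a BMP antagonist, amounted to 169 and 152 CPM against 0 and 1.03 in fibroblasts and 0 UMIs in osteoblasts (at least 366-fold higher, adjusted p = 0.000134). Rspo3, an enhancer of Wnt signaling, amounted to 592 and 608 against 0 and 8.89 in fibroblasts and 4.24 and 7.79 in osteoblasts (log2 fold change 5.85 ± 0.68, adjusted p = 0.000968, and 5.73 ± 0.64, adjusted p = 0.000426). Both genes were high in the stromal cells of each library and far lower in the other classes.

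Igf1, the main growth factor of the IGF pathway, was far higher than in osteoblasts and did not pass against fibroblasts. It amounted to 590 and 1302 CPM in the stromal cells, to 490 and 918 in fibroblasts, and to 0 and 0.269 in osteoblasts (log2 fold change 11.16 ± 0.95, adjusted p = 9.37e-05 against osteoblasts, and -0.10 ± 0.55, adjusted p = 0.96 against fibroblasts, or 0.38 ± 0.52, adjusted p = 0.741 on plain sums). In library 2, 40 of its 60 UMIs came from 1 cell, without which the level was 651. The genes of IGF-binding proteins differed among themselves. Igfbp4 amounted to 6360 and 4903 CPM and Igfbp5 to 6013 and 1519, both far above osteoblasts (30.7 and 58.0, and 12.4 and 16.1), whereas Igfbp6 amounted to 1.42 and 0, against 5223 and 4266 in fibroblasts (adjusted p = 0.00347). Dkk1, a Wnt antagonist, was the modulator lower than in osteoblasts, with 0 UMIs in the stromal cells against 25.1 and 19.3 CPM (at least 5.46-fold lower, adjusted p = 0.00801).

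**Figure D2:**
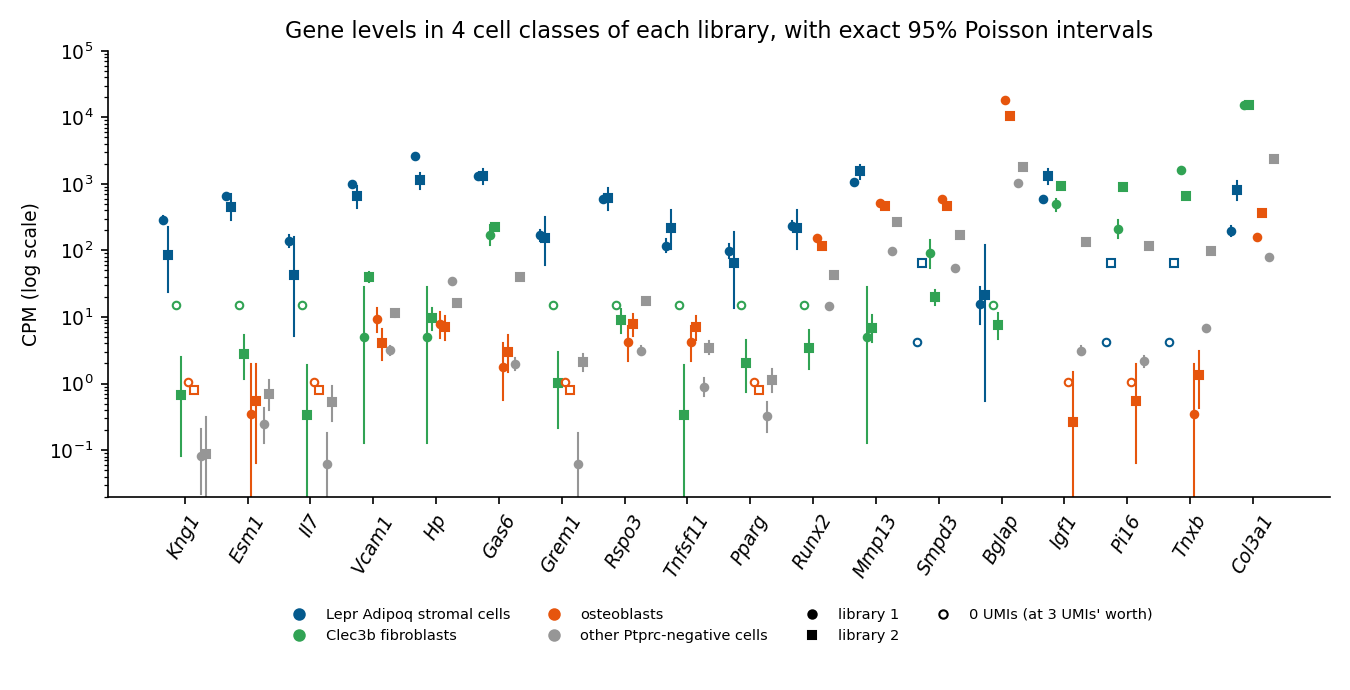
Level of 18 genes outside the rule in the stromal cells, Clec3b fibroblasts, osteoblasts, and all other Ptprc-negative cells (colours) of libraries 1 (circles) and 2 (squares), in CPM on a log axis, with exact 95% Poisson intervals. The other Ptprc-negative cells include the fibroblasts and the osteoblasts. Open symbols had 0 UMIs and stand at the level of 3 UMIs. Kng1, Il7, Grem1, and Tnfsf11 are high in the stromal cells alone, Mmp13 and Runx2 are present in osteoblasts too, Igf1 in fibroblasts, and Pi16 and Tnxb have no UMI in the stromal cells.

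The adipogenic regulators Pparg and Cebpa were present at higher levels than in fibroblasts and osteoblasts, and genes of lipid handling varied. Cebpb and Cebpd, relatives of Cebpa, passed in neither comparison. Pparg, the master regulator of fat cell differentiation, amounted to 97.9 and 65.1 CPM (69 and 3 UMIs), to 0 and 2.05 in fibroblasts, and to 0 in osteoblasts (at least 209-fold higher, adjusted p = 0.000231). Cebpa, its partner, amounted to 254 and 65.1 and was higher than in fibroblasts (adjusted p = 0.0182, or 0.06 with the library as a block) and osteoblasts (adjusted p = 0.00329). In library 2 Pparg and Cebpa rested on 3 UMIs each, for Pparg all from 1 cell. Of 17 adipogenic genes tested, 4 were higher and none lower than in fibroblasts (median log2 fold change 0.80), and 7 were higher and none lower than in osteoblasts (median 0.92). The 4 were Pparg, Cebpa, Fabp4, and Fabp5, of which the last pair rested on few cells. Fabp5, a fatty acid-binding protein, amounted to 419 and 282 CPM, with 189 of 295 and 10 of 13 UMIs from 1 cell each, without which the levels were 155 and 73.5.

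Some genes of mature adipocytes were at or near 0 and too low to be tested. The lipid droplet gene Cidec and the hormone gene Lep had 0 UMIs in both libraries, also in fibroblasts and osteoblasts. Plin1, which coats lipid droplets, amounted to 15.6 and 0 CPM, the secreted factors Cfd (adipsin) and Retn to 7.09 and 0 and to 1.42 and 0, and Lipe, a lipase of adipocytes, to 1.42 and 0. Other genes of lipid metabolism were detected. Plin2, a lipid droplet gene of many cell types, amounted to 66.7 and 21.7 CPM against 91.0 and 62.9 in fibroblasts, the desaturase Scd2 to 88.0 and 174 against 243 and 122, and the lipase Pnpla2 to 18.4 and 21.7 against 20.2 and 17.4. Plin2, Scd1, Scd2, Acsl1, and Pnpla2 did not pass against fibroblasts or osteoblasts. Apoe, a lipid carrier, amounted to 2198 and 2647 CPM against 7.77 and 8.87 in osteoblasts. In library 2, 79 of its 122 UMIs came from 1 cell, without which the level was 1120.

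Fabp4, a fatty acid-binding protein that endothelial cells also express, lay almost wholly in a few cells. In library 1, 185 of its 186 UMIs lay in 4 cells with 27 to 92 UMIs each, which also held 38 to 138 Lpl UMIs, 11 to 52 Adipoq UMIs, and 0 to 6 Pparg UMIs. These cells were picked after their values had been seen. The cell among them with 30 Fabp4 UMIs was called a doublet by Scrublet. In library 2, 65 of 66 Fabp4 UMIs came from the cell with 30 endothelial UMIs, which had 0 Pparg and 1 Lpl UMIs.

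Several osteogenic genes did not differ past the threshold from osteoblasts with TMM scaling, whereas genes of bone matrix were far lower. Of 20 tested, 12 were higher and 2 lower than in fibroblasts (median log2 fold change 3.39), and 3 were higher and 9 lower than in osteoblasts (median -1.45). Runx2, the transcription factor required for bone formation, amounted to 234 and 217 CPM in the stromal cells, to 155 and 115 in osteoblasts, and to 0 and 3.42 in fibroblasts. Runx2 was far above fibroblasts in both libraries (log2 fold change 5.71 ± 0.66, adjusted p = 0.000778). Against osteoblasts the sign depended on the scaling, and neither fit passed. The log2 fold change was -0.11 ± 0.48 (adjusted p = 0.936) with TMM and 0.76 ± 0.46 (adjusted p = 0.256) on plain sums, the scale of the CPM, which were higher in the stromal cells of both libraries.

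Mmp13, a collagenase, amounted to 1075 and 1540 CPM against 515 and 461 in osteoblasts and 5.06 and 6.84 in fibroblasts. Alpl, the alkaline phosphatase of bone, amounted to 322 and 911 against 538 and 471 in osteoblasts and 10.1 and 5.81 in fibroblasts. Neither differed from osteoblasts past the threshold (adjusted p = 0.511 and 0.445), although Mmp13 was higher on plain sums (log2 fold change 1.42 ± 0.38, adjusted p = 0.0279), and both were higher than in fibroblasts (adjusted p = 0.000342 and 0.000767). In library 2, 65 of the 71 Mmp13 UMIs and 38 of the 42 Alpl UMIs came from the 5 cells without Adipoq, all of which had exactly 3 of the 6 genes. The cells of library 2 with Adipoq held 345 and 230 CPM. Sp7 (osterix), which acts after Runx2, amounted to 56.8 and 108 CPM against 177 and 117 in osteoblasts (adjusted p = 0.0329, or 0.066 by DESeq2 and 0.16 on plain sums) and 0 and 0.342 in fibroblasts.

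Col1a1, the main collagen of bone, amounted to 335 and 2495 CPM against 88746 and 73940 in osteoblasts and 7559 and 11961 in fibroblasts. In library 2, 108 of its 115 UMIs came from 1 cell, without which the level was 228. The matrix protein gene Sparc amounted to 4129 and 4014 against 36540 and 27965 in osteoblasts, and Smpd3, a sphingomyelinase needed for mineralization, had 0 UMIs against 594 and 469 (at least 131-fold lower, adjusted p = 0.000649). All 3 were lower than in osteoblasts in both libraries, and Col1a1 (adjusted p = 0.00926) and Sparc (adjusted p = 0.0134) passed as well. The osteoblasts were taken by Bglap2, Ibsp, Ifitm5, and Dmp1, and the rule kept cells with at least 2 of these genes out of the stromal cells. Genes varying together with them therefore differ partly through that choice. Of the rule genes, Ibsp (bone sialoprotein) was not absent, at 1024 and 651 CPM against 7275 and 8543 in osteoblasts, since the rule let 1 such gene stand. Bglap (osteocalcin), at 15.6 and 21.7 against 18007 and 10515, is a near copy of the rule gene Bglap2, so that its difference follows in part from the selection. The genes higher than in osteoblasts were Limch1 (370 and 239 against 21.5 and 11.6), the potassium channel gene Kcnk2 (234 and 456 against 20.8 and 17.7), and Tnfsf11.

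Most genes of periosteal fibroblasts and P-SSCs were lower in the stromal cells than in the fibroblasts, and some had no UMI. Of 19 tested, 16 were lower and none higher than in Clec3b fibroblasts (median log2 fold change -9.14, or -6.23 with the 7 genes without a UMI in the stromal cells put at the floor of 3 UMIs). Against osteoblasts, 1 was lower and none higher (median -0.16, or 0.57 with those genes at the floor, which lies high because the stromal sums are shallow). The fibroblasts were taken by Clec3b, so that genes varying together with Clec3b differ partly through that choice. Lrp1, an endocytic receptor and 1 of the surface molecules examined by the study, amounted to 238 and 325 CPM in the stromal cells, to 622 and 744 in fibroblasts, and to 109 and 120 in osteoblasts. It was present in the stromal cells and lower than in fibroblasts (log2 fold change -1.74 ± 0.42, adjusted p = 0.0345, or -1.32 ± 0.40, adjusted p = 0.071 on plain sums), and did not differ from osteoblasts past the threshold (0.37 ± 0.42, adjusted p = 0.674).

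Anpep, which encodes the other such molecule, CD13, amounted to 5.68 and 0 CPM (4 and 0 UMIs) against 131 and 149 in fibroblasts (log2 fold change -5.10 ± 0.68, adjusted p = 0.00149). Prrx1, a transcription factor of limb mesenchyme, amounted to 262 and 239, against 480 and 279 in fibroblasts and 123 and 67.5 in osteoblasts, and passed in neither comparison (adjusted p = 0.302 and 0.533). Ctsk, a protease gene used to trace periosteal stem cells, amounted to 170 and 174 and also passed in neither. Prrx1 and Ctsk were thus present in all 3 classes, and Anpep was near 0 in the stromal cells.

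Pdpn (podoplanin), Thy1, Pi16, Dpp4, Mfap4, Tnxb, and Col14a1 had no UMI in any of the 88 cells. Fibroblasts held 212 and 900 CPM of Pi16, which marks universal fibroblasts, and 1618 and 660 of the matrix glycoprotein Tnxb, at least 214-fold and 180-fold more than the stromal cells over both libraries. Cd34 and Ly6a (Sca-1), surface markers of progenitors, had 0 UMIs in library 1 and 1 and 3 UMIs in library 2, against 1330 and 862 and against 2852 and 2505 CPM in fibroblasts. Every one of these genes was lower than in fibroblasts, although Dpp4 passed only by edgeR (adjusted p = 0.00624, or 0.701 by DESeq2).

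Of the 10 genes with the lowest fold changes against fibroblasts, all had 0 UMIs in the stromal cells of both libraries. They were Aspn, Tnxb, Myoc, Col14a1, Dpt, Pcolce2, Ccn3, Pi16, Sema3c, and Ackr3, of which Ackr3 is a scavenger receptor for Cxcl12. Ackr3 amounted to 501 and 358 CPM in fibroblasts and to 15.2 and 39.8 in osteoblasts, and was lower in the stromal cells than in both (adjusted p = 0.000953 and 0.00622). No Ackr3 UMI was thus found in these cells of high Cxcl12. The 10 genes with the lowest fold changes against osteoblasts also had 0 UMIs in the stromal cells, namely Cgref1, Smpd3, Bglap3, Cpz, Col22a1, Pcsk6, Slc13a5, Col9a1, Chad, and Col13a1. Col9a1 and Chad are cartilage genes, and the osteoblast class also held other cartilage transcripts, such as 1587 and 1991 CPM of Col2a1.

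Matrix genes differed in both directions from each of the other classes. Of 30 matrix genes tested, 3 were higher and 12 lower than in fibroblasts (median log2 fold change -2.27), and 9 were higher and 8 lower than in osteoblasts (median -0.13). Tnc (tenascin C) amounted to 1444 and 3211 CPM against 25.3 and 52.6 in fibroblasts and 138 and 153 in osteoblasts, and Col8a1, a network collagen, to 962 and 1020 against 55.6 and 64.9 and against 5.65 and 2.69. Both were higher in the stromal cells than in either class, as was the elastic fiber gene Fbln5. The basement membrane collagen gene Col4a1, at 525 and 499, was higher than in osteoblasts (1.06 and 1.88), and fibroblasts held 379 and 270. The fibrillar collagen gene Col3a1, at 197 and 803 CPM against 15539 and 15277 in fibroblasts, and the proteoglycan gene Dcn, at 62.4 and 260 against 7691 and 11385, were lower than in fibroblasts. In library 2, 33 of 37 Col3a1 UMIs and 8 of 12 Dcn UMIs came from 1 cell each.

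**Figure D3:**
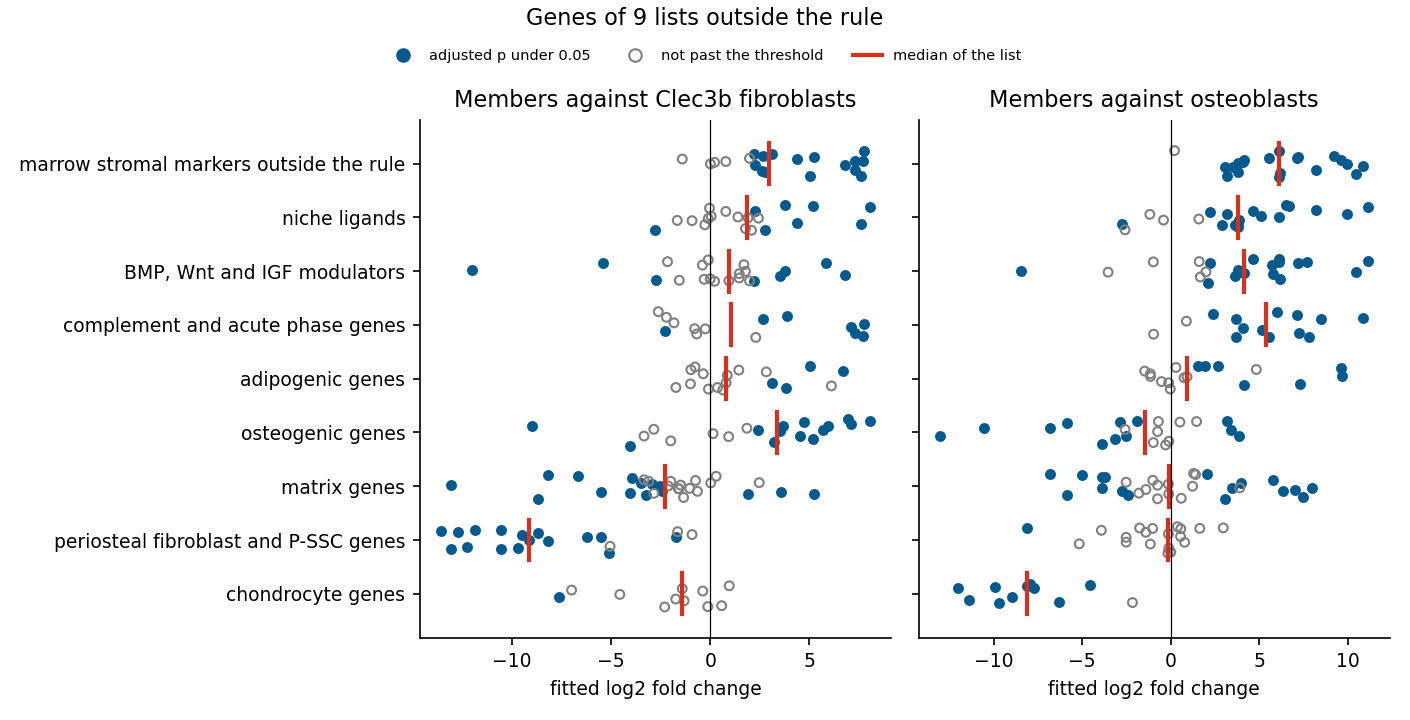
Fitted log2 fold changes (x axis) of the tested genes of 9 lists outside the rule, in the stromal cells against Clec3b fibroblasts and against osteoblasts. Filled points passed an adjusted p of 0.05, open points did not, and red bars are list medians, which for genes without a UMI in 1 class are fitted values and no bounds. The marrow stromal markers lie to the right in both comparisons (medians 2.95 and 6.13), the osteogenic genes to the right of 0 against fibroblasts and to the left against osteoblasts (3.39 and -1.45), and the periosteal fibroblast genes far to the left against fibroblasts alone (-9.14).

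Among 27 transcription factors tested, 6 were higher and 3 lower than in fibroblasts (median log2 fold change -0.67), and 7 were higher and 1 lower than in osteoblasts (median 1.05). Snai2 amounted to 316 and 174 CPM and was higher than in both, as were Pparg and Cebpa. Runx1, a relative of Runx2 best known in blood formation, amounted to 646 and 651 against 10.1 and 59.1 in fibroblasts (adjusted p = 0.00886) and 98.2 and 82.2 in osteoblasts (adjusted p = 0.0586, or 0.00517 on plain sums). Osr1 and Osr2, factors of connective tissue fibroblasts, had no UMI in the stromal cells. Ebf1, a relative of the rule gene Ebf3 that B cells also use, amounted to 1189 and 1324 against 1183 and 750 in fibroblasts and 48.0 and 69.3 in osteoblasts, and was higher than in osteoblasts only (adjusted p = 0.00101).

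Among 24 receptors tested, 4 were higher and 3 lower than in fibroblasts (median log2 fold change 0.17), and 7 were higher and 3 lower than in osteoblasts (median 0.71). Pdgfrb, a receptor of pericytes and stromal cells, amounted to 613 and 608 CPM against 50.6 and 87.8 in fibroblasts and 8.48 and 5.64 in osteoblasts, and Fgfr2 to 248 and 174 against 5.06 and 6.84 and against 24 and 21.2. Both were higher than in either class. Lifr, the receptor of leukemia inhibitory factor, amounted to 384 and 391 against 10.1 and 14.7 in fibroblasts and 221 and 123 in osteoblasts. Pth1r, the parathyroid hormone receptor, amounted to 197 and 86.8, and was lower than in osteoblasts (479 and 547) and did not pass with TMM against fibroblasts (30.3 and 34.2, adjusted p = 0.0521).

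Of the other lineages of the periosteum, chondrocyte and tenocyte genes were low, whereas some mural genes were present. Of 11 chondrocyte genes, 10 were lower and none higher than in osteoblasts, and 1 was lower than in fibroblasts, with Acan at 0 UMIs and Col2a1 at 14.2 and 21.7 CPM. The osteoblast class itself carried chondrocyte transcripts. The 11 genes summed to 12800 and 7883 CPM there, against 115 and 108 in the stromal cells and 187 and 167 in fibroblasts, and the part of these transcripts in the comparison with osteoblasts was not tested. Of 6 tenocyte genes, 1 was lower than in osteoblasts and 3 were lower than in fibroblasts (2 on plain sums), and none was higher. Of 8 mural genes, 4 were higher and 1 lower than in osteoblasts, and 1 was higher and 1 lower than in fibroblasts, the latter (Cspg4, adjusted p = 0.0412) not on plain sums (0.0786). Of the higher ones, Notch3 amounted to 138 and 108 CPM, whereas the contractile gene Myh11 amounted to 1.42 and 0, and all 28 Acta2 UMIs of library 2 came from 1 cell. All 11 mural genes of the list summed to 314 and 1237 CPM in the stromal cells, 137 and 174 in fibroblasts, 71.7 and 92.4 in osteoblasts, and 35.2 and 241 in the other Ptprc-negative cells. In library 2, 49 of the 57 mural UMIs of the stromal cells came from 1 cell. None of 10 cell cycle genes passed in either comparison with TMM. On plain sums Ccnb1 was higher than in fibroblasts (adjusted p = 0.0395) and Pcna than in osteoblasts (0.0248). The 10 genes summed to 626 and 260 CPM in the stromal cells, 142 and 182 in fibroblasts, and 333 and 194 in osteoblasts. In library 1, 137, 79, 76, and 75 of the 441 stromal UMIs came from 1 cell each. Without called doublets and cells rich in erythroid or endothelial transcripts, the stromal sums were 135 and 172. Of 12 immediate early and stress genes, 3 were lower than in osteoblasts and none differed past the threshold from fibroblasts. On plain sums 1 was lower than in osteoblasts, since Egr1 (adjusted p = 0.0218 with TMM and 0.119 without) and Hspa1a (0.0395 and 0.0955) no longer passed. The stromal level of Hspa1a rested on single cells, with 221 of 223 UMIs in library 1 and all 5 in library 2 from 1 cell each. Of the 1206 stromal UMIs of these 12 genes in library 1, 940 came from 1 cell.

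Against all other Ptprc-negative cells, where no call held with the library as a block, the genes leading the fit were again Kng1, Esm1, Kng2, Gm4951, and C6. Esm1, a secreted proteoglycan first described in endothelial cells, amounted to 660 and 456 CPM against 0.243 and 0.699 in the other cells, and Gdpd2, a membrane phosphodiesterase, to 502 and 325 against 0.466 and 0.874. Within each library the stromal cells held far more of these genes than the other cells, 2713-fold (1539 to 5290) and 652-fold (324 to 1336) for Esm1 by counting error alone. The remaining named genes on the high side were Marc1, Il1rn, Wdr86, Tmem178, Pappa, Ggt5, Aldh1a2, Iigp1, and Vcam1. On the low side only 8 genes met the rule for naming, namely Hist1h2ap, Ly6d, Mzb1, Hist1h2ae, Blnk, Cytip, Cd79a, and Coro1a. The lists with a gene past the threshold in this comparison were the marrow stromal markers (8 of 20 higher), niche ligands (4 of 20 higher), complement and acute phase genes (4 of 14 higher), osteogenic genes (4 higher and 2 lower of 20), matrix genes (2 of 30 higher), and chondrocyte genes (9 of 11 lower). A single gene passed upward for the adipogenic genes, the BMP, Wnt, and IGF modulators, and the transcription factors, and a single gene downward for the neutrophil and monocyte genes and for the B cell genes. None passed for the other lists, among them the 19 periosteal fibroblast and P-SSC genes (median -5.19, or -2.17 with genes at the floor). The median of all genes was -0.46 in this fit and -0.30 by DESeq2.

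Among the stromal cells, those without an Adipoq UMI (7 in library 1 and 5 in library 2) had a different profile from those with Adipoq (71 and 5). These groups are described only, since their genes were picked after the values had been seen. Cxcl12 amounted to 13599 and 15050 CPM in cells with Adipoq and to 2255 and 3417 in cells without it, and Hp to 2896 and 2930 and to 113 and 34.9. Both genes were thus higher in the cells with Adipoq of each library. The cells without Adipoq of library 2 include the cell with 30 endothelial UMIs, without which Cxcl12 amounted to 3933 and Hp to 42.7. The median depth of the cells without Adipoq was 9112 and 5289 UMIs, above that of the cells with Adipoq (7152 and 3061).

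Apoe amounted to 2324 and 6836 CPM in cells with Adipoq and to 1064 and 105 in those without, Gas6 to 1403 and 2527 and to 525 and 593, and Igfbp4 to 6840 and 9248 and to 2042 and 2266. In library 2, 1 cell with Adipoq held 79 Apoe UMIs, and the median cell held 6 with Adipoq and 1 without. Some bone-related genes went the other way. Mmp13 amounted to 820 and 345 CPM with Adipoq and to 3376 and 2266 without, Alpl to 263 and 230 and to 851 and 1325, and Spp1 to 391 and 402 and to 8312 and 14818. Mmp13 ranged from 0 to 76 UMIs in the 7 cells of library 1 without Adipoq (median 30, found in 6 of them) and from 0 to 26 in the 5 cells of library 2 (median 10, found in 4). Spp1 rested more on single cells, with 345 of 586 UMIs in library 1 and 405 of 425 in library 2 from 1 cell each. Col1a1 amounted to 265 and 345 with Adipoq and to 964 and 3800 without, but 108 of the 109 UMIs of the latter cells in library 2 came from 1 cell, and the median cell there held 0 in either group. Other genes did not follow. Runx2 amounted to 224 and 172 with Adipoq and to 326 and 244 without, with overlapping intervals. Sp7 amounted to 56.8 and 287 with Adipoq and to 56.7 and 0 without, Tnfsf11 to 110 and 574 and to 184 and 0, and Tnc to 1256 and 3734 and to 3135 and 2894, so that none of the 3 was higher without Adipoq in both libraries. Leaving out the cell with 30 endothelial UMIs gave 2779 CPM of Mmp13 and 1582 of Alpl in the cells without Adipoq of library 2. Cells without Adipoq made up 5 of the 10 stromal cells of library 2 and 7 of the 78 of library 1, and the part of this share in the differences between the libraries was not tested.

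**Figure D4:**
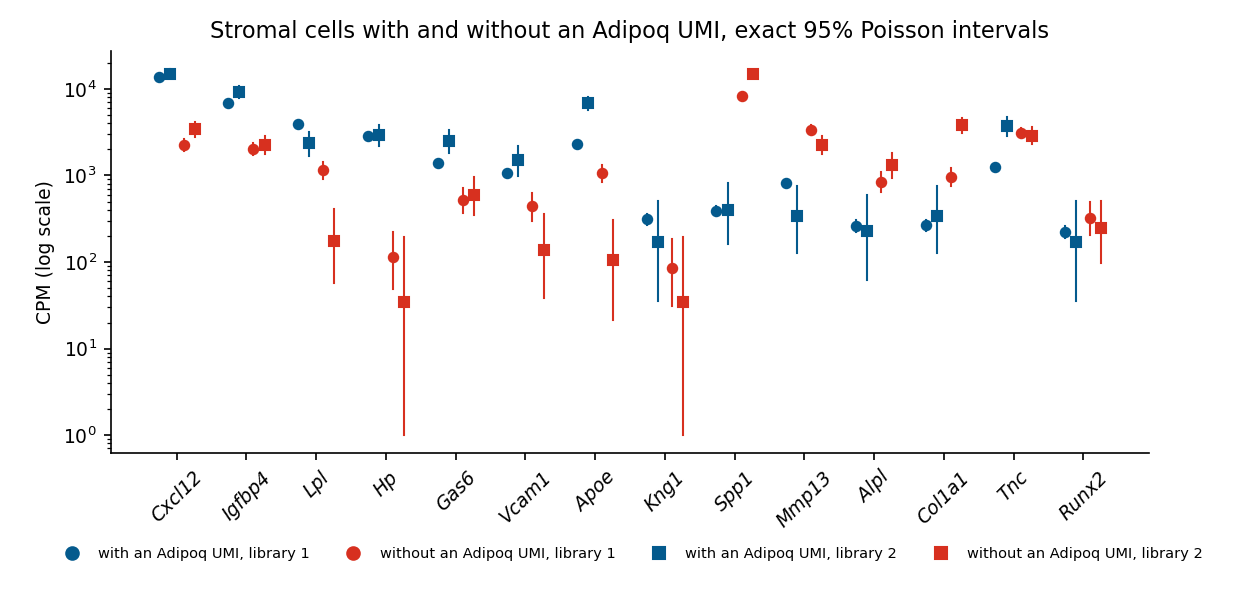
Levels of 14 genes (y axis, CPM, log scale) in the stromal cells with an Adipoq UMI (blue, 71 and 5 cells) and without one (red, 7 and 5 cells), in libraries 1 (circles) and 2 (squares), with exact 95% Poisson intervals. Cxcl12, Igfbp4, Hp, and Gas6 are higher in the cells with Adipoq in each library, Spp1, Mmp13, Alpl, and Col1a1 in the cells without it, where 1 cell of library 2 holds 405 of 425 Spp1 UMIs and 108 of 109 Col1a1 UMIs. The Runx2 intervals overlap, and Tnc is higher without Adipoq in library 1 alone.

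Kng1 and Kng2 are neighbors of Adipoq. On GRCm38 (GENCODE M21), Kng2 lies on chromosome 16 from 22985854 to 23029482 (minus strand), Kng1 from 23057865 to 23082078 (plus strand), and Adipoq from 23146536 to 23158028 (plus strand). The 3 genes fall within 172 kb, a span that holds 6 genes. Eif4a2 and Rfc4, which lie between Kng1 and Adipoq, did not pass against the other Ptprc-negative cells. Eif4a2, a translation factor, amounted to 139 and 239 CPM in the stromal cells (98 and 11 UMIs) against 113 and 111 in the other Ptprc-negative cells (log2 fold change -0.20 ± 0.61, adjusted p = 0.905, with TMM, a sign opposite to that of the CPM), and Rfc4, a DNA replication factor, to 55.3 and 0 against 174 and 68.6 (adjusted p = 0.279). On the far side of Kng2, the liver genes Ahsg, Fetub, and Hrg had 0 UMIs in the stromal cells. Crygs, a lens crystallin gene on that side, had 15 and 0 UMIs in the stromal cells (21.3 and 0 CPM), 2 and 1 in the other Ptprc-negative cells, and 0 in fibroblasts and osteoblasts.

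**Figure D5:**
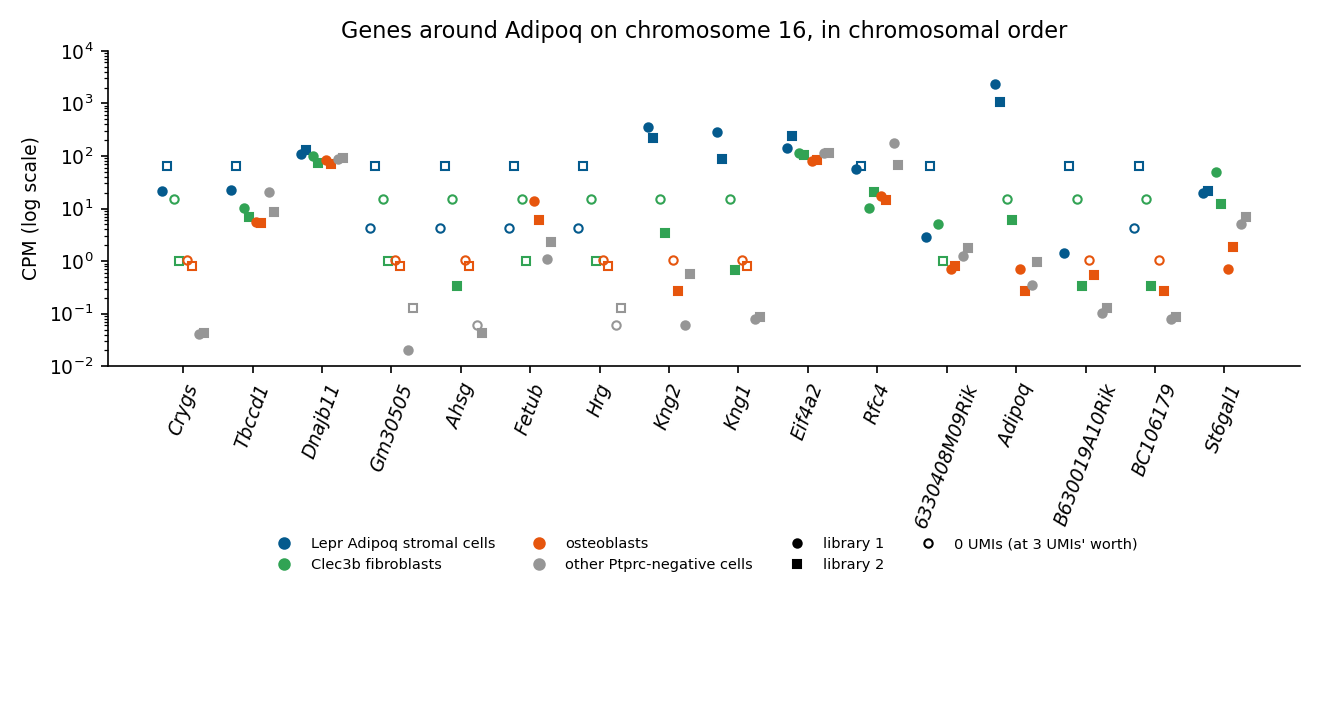
Levels of the 16 annotated genes around Adipoq on chromosome 16, in chromosomal order from left to right (y axis, CPM, log scale), in 4 cell classes of libraries 1 (circles) and 2 (squares). Open symbols had 0 UMIs and stand at the level of 3 UMIs, which lies high for the stromal cells of library 2. Kng2, Kng1, and Adipoq stand out in the stromal cells of both libraries and Crygs in those of library 1 (15 UMIs), and Eif4a2 and Dnajb11 have UMIs in all classes.

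The windows at the starts of Adipoq and Kng2 are shown because these neighbors were high in the same cells. They were taken from RefSeq (GRCm38.p6), from 250 bases before to 50 bases after the transcription start. Both strands were searched for TTGCNNAA, a form of the motif that C/EBP factors such as Cebpa bind, which reads TTNNGCAA on the opposite strand and is in capitals below. The first window lies at chr16:23146286-23146585 on the plus strand and the second at chr16:23029052-23029351 on the minus strand.
Adipoq: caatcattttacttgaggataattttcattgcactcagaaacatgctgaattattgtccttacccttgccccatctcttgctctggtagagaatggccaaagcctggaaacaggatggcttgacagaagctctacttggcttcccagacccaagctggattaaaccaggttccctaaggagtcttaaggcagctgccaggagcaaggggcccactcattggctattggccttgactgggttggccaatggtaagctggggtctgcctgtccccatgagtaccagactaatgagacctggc
Kng2: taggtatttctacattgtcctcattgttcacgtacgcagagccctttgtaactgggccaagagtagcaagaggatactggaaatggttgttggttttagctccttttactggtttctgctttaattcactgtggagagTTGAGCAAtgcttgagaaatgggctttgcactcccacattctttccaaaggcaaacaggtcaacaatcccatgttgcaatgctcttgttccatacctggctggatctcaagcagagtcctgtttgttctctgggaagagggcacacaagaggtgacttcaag

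The Kng2 window held 1 match, beginning at position -112 from the start, and the Adipoq window held none. Of 22 genes searched, the 7 genes of the rule that define the cells and the leading genes against other Ptprc-negative cells, 14 had a window in the table, and 3 of these held the motif (Kng2, Lepr, and Gdpd2), in 3 of 18 windows. Of all 32851 windows, 10.8% held it. A match is a description of these letters only.

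Transcripts of other lineages were present in some of the stromal cells. The 8 erythroid genes summed to 24207 and 759 CPM, with Hbb-bs the most abundant and 3 of them at 0 in library 2. Most of this came from 2 cells of library 1, with 9089 and 5767 erythroid UMIs, since the median cell held 11. Without the cells that Scrublet called doublets and those with at least 5% erythroid UMIs or at least 5 endothelial UMIs, the sums were 2403 and 343. The 9 endothelial genes had 13 UMIs in library 1 and 30 in library 2, all 30 from 1 cell, and 5 and 2 of them were at 0. That cell was the one without Lepr, Adipoq, and mesenchymal genes that also held most Fabp4 of library 2. The 9 B cell genes summed to 278 and 21.7 CPM, with Igkc the most abundant in library 1, where 108 and 42 of the 196 UMIs came from 1 cell each. Neither of these cells was among those left out above, and the B cell sum of library 1 was 364 CPM without the latter. The 13 neutrophil and monocyte genes summed to 627 and 86.8, with S100a9 the most abundant. The 5 skeletal muscle genes summed to 369 and 738 CPM, against 10.1 and 230 in fibroblasts and 15.9 and 152 in osteoblasts, with 232 of 260 and 32 of 34 UMIs from 1 cell each. Leaving out the doublets and the cells with erythroid or endothelial transcripts gave 370 genes higher and 459 lower than fibroblasts, and 678 and 575 than osteoblasts, where 283 and 464, and 551 and 518, had passed with them. Of the endothelial genes only Tek was tested in these fits, with 0 UMIs in the stromal cells, and it was lower than in fibroblasts (adjusted p = 0.0135). No erythroid, B cell, neutrophil, Schwann cell, or skeletal muscle gene passed against fibroblasts or osteoblasts with TMM, whereas Igkc (adjusted p = 0.0105) and Alas2 (0.036) were higher than in osteoblasts and Mpo (0.0498) than in fibroblasts on plain sums.

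The stromal sums of the libraries held 704825 and 46090 UMIs, so that only large differences of abundant genes between them could be seen. Of 4375 genes with at least 30 UMIs, the 95% interval of the ratio of library 2 to library 1 lay above 2 for 55 and below 0.5 for 16. For 3894 it held 1, and a difference was not detectable at this depth. These intervals cover counting error in 1 sum a library, and no test of the libraries was made. Junb, an immediate early gene, amounted to 184 and 2582 CPM (ratio 14.0; 10.8 to 18.1), with 65 of its 119 UMIs in library 2 from 1 cell. The interval of Igfbp5 lay below 1 (0.253; 0.197 to 0.320). The intervals of Gas6 (1.01; 0.763 to 1.30) and Rspo3 (1.03; 0.674 to 1.51) held 1.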

How the data were processed

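Periosteal cells of 2 mouse libraries were analysed from the deposited matrices of UMI counts, which the authors made with Cell Ranger 6.1.2 on mm10 according to the submitters' processing notes. The values were raw counts of UMIs for each gene and cell (32288 features, 3 of them reporters). The filters and the rule for the cells are given above. The cells and gene lists were chosen with earlier results of these data known.

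Counts were summed by library and cell class (88 stromal cells, 326 Clec3b fibroblasts, 320 osteoblasts, and 5322 other Ptprc-negative cells). The other Ptprc-negative cells were all those outside the stromal cells, and so include the fibroblasts and the osteoblasts. Clec3b fibroblasts had at least 2 Clec3b UMIs, no Ptprc UMI, and fewer than 2 of the 4 osteoblast genes at 2 or more UMIs. Osteoblasts had at least 2 of these genes at 2 or more UMIs and at most 1 Clec3b UMI. B cells had at least 3 Cd79a UMIs. Sums were tested with edgeR 4.0.16 (quasi-likelihood test, TMM, filterByExpr, Benjamini-Hochberg adjustment at 0.05, R 4.3.3), 6 sums in a single fit for fibroblasts and osteoblasts and 4 for the other cells. DESeq2 1.42.0 was an alternative, as were other filters, stricter and looser rules for the cells, leaving out the stromal sum of a library, and sums without TMM. Sums with the same number came from the same library, and their deviations from the class means correlated at 0.176 with the other cells, 0.0690 with fibroblasts, and 0.184 with osteoblasts.

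For each comparison, the genes named were the 15 genes outside the rule with the largest fold changes and the 10 with the lowest, among those past the threshold, in the same direction in both libraries, and found in at least 20% of the cells of the higher class, besides the genes of 21 lists. The neighbors of Adipoq and the genes set beside the Adipoq status of cells were chosen after their values had been seen. In simulated counts with known log2 changes of 4, the test recovered 72.8% of the altered genes against fibroblasts, 75.0% against osteoblasts, and 20.2% against the other cells. Of changes of 2 it recovered 25.8%, 22.0%, and 1.0%, so that most changes of that size or smaller would not be called. The simulation gave all genes a common spread, all classes a shared profile, and the libraries no difference but depth. Recovery in the real sums may therefore differ.

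Intervals are exact (Poisson or binomial, 95%) and cover counting error only. Doublets were not removed. Scrublet (scanpy 1.11.5) called 124 of 6276 cells in library 1, 4 of them stromal, and 1 of 2893 in library 2, where it did not work. Without the 4 called stromal cells, the stromal sum of library 1 fell from 704825 to 553107 UMIs. With the cells rich in erythroid or endothelial transcripts left out too, it was 516802 UMIs in 72 cells. The marrow stromal markers outside the rule then summed to 30791 CPM in library 1 instead of 24128. Coordinates are from GENCODE M21, in which 32235 of 32285 gene identifiers were found.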

Additional observations from a re-analysis of the deposited data

Results flagged for a closer look

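Reporter transcripts were found in libraries labelled WT. The stromal cells held 5 tdTomato UMIs in library 1 and 7 in library 2, the former in 5 cells and the latter in 2. EGFP had 6837 UMIs in 170 of the passing cells of library 2 and none in its stromal cells. A further 7 cells of library 1 met every criterion of the stromal cells other than the absence of Ptprc, and were used in no comparison.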

How the results depend on the processing

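The number of stromal cells ranged from 66 to 96 over the settings tried, but in library 2 it was 4 with at least 4 of the 6 genes, 16 with at least 2, and 6 at no more than 5% mitochondrial UMIs. Against other Ptprc-negative cells, 56 genes were higher and 29 lower. The counts were 232 and 132 by DESeq2, 13 and 4 with no filter on low counts, and 317 and 380 without the bias adjustment of edgeR. They were 192 and 128 with at least 4 of the 6 genes, 0 and 0 with at least 2 (1794 at an unadjusted p under 0.05), and 31 and 18 at no more than 5% mitochondrial UMIs. They were 131 and 115 against mesenchymal cells alone and, in a setting chosen after seeing the data, 178 and 225 without cells carrying markers of other lineages. On sums with no TMM factor, also chosen after seeing the data, edgeR called 14 higher and 4 lower, with 446 higher against fibroblasts and 1407 higher and 269 lower against osteoblasts. Of the named and listed genes called, 92 of 95 against fibroblasts, 120 of 126 against osteoblasts, and 14 of 48 against the other cells stayed past the threshold there. With the library as a block, edgeR called 0 and 0, with 2831 at an unadjusted p under 0.05. The cause of these shifts was not tested.

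Leaving out the stromal cells of either library, also chosen after seeing the data, gave 0 to 5 higher and 0 to 0 lower genes against the other cells, 52 to 329 and 17 to 453 against fibroblasts, and 103 to 575 and 35 to 478 against osteoblasts, the lowest counts for the latter classes without library 1. Against fibroblasts, 438 genes were higher without the bias adjustment and 305 lower with at least 2 of the 6 genes. Against osteoblasts, 339 were lower by DESeq2. Coro1a (0.62) and Ngp (0.21) changed sign against mesenchymal cells alone. The log2 fold changes of Ebf2 (-3.17 to 5.64), Flt3l (-3.13 to 5.33), Il34 (-2.61 to 6.98), and Serpina3n (-4.02 to 6.18) against osteoblasts ranged thus when the stromal cells of a library, or the whole library, were left out, being negative without those of library 1, since they had 0 UMIs in those of library 2. Of the named and listed genes called, the block kept 92 of 95 against fibroblasts and 123 of 126 against osteoblasts past the threshold. Leaving out a whole library leaves 1 sum per class, which gives ratios and no test. With 46090 UMIs in all, the stromal cells of library 2 limit what can be seen of rare transcripts.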

Other observations

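The stromal cells came from animals of both sexes in library 1, as far as sex-linked transcripts show. Of 78 cells, 36 held Xist and no Y-linked transcript, 22 a Y-linked transcript and no Xist, 1 both, and 19 neither. In library 2, 8 of 10 held Xist, 0 a Y-linked transcript, and 2 neither, although 927 of the 2893 passing cells of that library held a Y-linked transcript alone.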
